A study of Mus musculus with 16 samples.

Results

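Cells with a combined deletion of 3 lettered sites, the group abc.del, were compared with their parental line F121-9 for nascent transcription of autosomal genes away from the locus of Dppa2, Dppa4 and Morc1 on chromosome 16. The series concerns DNA elements that control when and where DNA is replicated. The comparison used 4 of 16 libraries, 2 of abc.del and 2 of F121-9, chosen by their labels. By their name the abc.del cells carry a deletion of sites a, b and c. Where these sites lie and which copy or copies were edited is not in the labels, and F121-9 is given as the parental line. Both groups are mouse embryonic stem cells of a hybrid line, grown in medium with 2i (a pair of kinase inhibitors) and LIF. The line has 1 castaneus (cast) and 1 129 copy of each autosome, and the X is described below. The 2 abc.del names carry codes that could stand for clones. Since nothing in the labels says that libraries of a group came from separate edits or cultures, a p-value here measures the spread of these samples, which may be technical. In Bru-seq, cells take up bromouridine, here for 30 min at 2 mM, and RNA made in that time is captured and sequenced, so that the values follow transcription rather than the stored RNA pool.

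Embryonic stem cells in 2i and LIF keep a naive state: LIF acts through Jak1 and Stat3, the inhibitors block the ERK pathway and release Wnt signalling, and DNA methylation is low. Genes of the germ line and of meiosis are mostly held silent in such cells by promoter methylation and by a Polycomb complex that binds E-box and E2F sites. Dppa2 and Dppa4 are chromatin proteins of pluripotent cells and Morc1 is a silencing factor of the male germ line.

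The libraries held 18.1 and 15.6 M allele-assigned reads over genes in abc.del, against 22.3 and 14.2 M in F121-9. Levels are CPM (counts of a copy scaled to the total of that copy in the library, X included), the mean of the 129 and cast values of a gene. Differences are abc.del minus F121-9 of log2(CPM + 0.1), which understates the change of genes with low values. The X chromosome differed between the groups. Of X-linked reads, 1.05% and 1.06% came from 129 in the abc.del libraries, against 49.7% and 52.6% in the F121-9 libraries, and X-linked genes took 2.27% and 2.06% of all reads against 3.70% and 3.93%. Every result below is therefore a comparison of libraries that differ both in the 3 sites and in the X, and these cannot be told apart with these 4 libraries. On autosomes both copies were read evenly: the share of 129 reads per chromosome and library lay between 48.1% and 56.1%. The stem cell markers listed for this check, Pou5f1, Sox2, Nanog and 6 others, were read in all 4 libraries and summed to 2188 and 1966 CPM in abc.del, against 1854 and 1633 in F121-9. Most of the sum was Esrrb (1040 and 902 CPM, against 777 and 718 CPM) and Tfcp2l1 (619 and 551 CPM, against 516 and 458 CPM). Nanog and Zfp42 overlapped between groups, and the other markers were higher in abc.del without overlap.

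The locus genes were lower on 1 copy. The 129 copy differed by -6.07 for Morc1, -5.45 for Dppa2 and -6.82 for Dppa4, while the cast copy differed by -0.03, -0.16 and 0.05. Beyond the locus genes, the nearest class on chromosome 16 was also lower. Of 35 genes tested 1 to 5 Mb away, 4 fell and 0 rose, against 1.98% and 0.781% of all tested genes, and 26 had a negative difference. Their median difference was -0.38 on the mean of both copies, -0.27 on 129 and -0.17 on cast, beside 0.06 for all genes on the mean. Their median span was 53.2 kb, and all genes of 50 to 100 kb had a median of -0.11, with 2.43% called as lower. 1 of the 35 genes, G730013B05Rik, is among the 10 largest falls, with 0.155 and 0.122 CPM in abc.del, against 3.20 and 6.19 in F121-9 (-4.26). It was lower on both copies (-4.71 on 129 and -4.05 on cast). The 73 genes 5 to 15 Mb away had a median of -0.06 and the 334 genes beyond 15 Mb a median of 0.08.

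Away from the locus, 368 of 13319 autosomal genes passed an adjusted p of 0.05 in limma, which is 2.76% of those tested. Of these, 264 fell (1.98%) and 104 rose (0.781%). The falls were also larger: 226 of the falling genes changed at least 2-fold and 100 at least 4-fold, against 65 and 8 of the rising genes. The median difference over all tested genes was 0.06. The number of calls depends strongly on how the spread is estimated. With the same 4 libraries it was 505 by edgeR and 1014 by DESeq2, but 0 in limma without a trend of the spread on expression, and 6 when the groups ab.del and c.del, with 2 libraries each, were fitted together with these. With 1 library left out there were 128 calls (abc.del replicate 1 left out), 165 (abc.del replicate 2), 302 (F121-9 replicate 1) or 193 (F121-9 replicate 2). At an unadjusted p under 0.05 there were 2820 genes.

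Germ line genes were among the largest falls. Of 47 tested members of the germ line list, 9 fell and 0 rose, against 1.98% and 0.781% of all genes, and 39 had a negative difference. The list's median was -1.23, beside 0.06 for all genes, and it was alike on both copies (-1.26 on 129 and -1.37 on cast). The promoters of 5 of the 9 called genes are shown because they carry the sequence features by which this class of genes is known, or differ in them. They span 250 bases before to 50 bases after the start in RefSeq (build GRCm38.p6), 5′ to 3′ on the gene's strand, with capitals at each CACGTG, the E-box, and at each GGCGGGA or its complement TCCCGCC, the E2F6-type motif.
Cox7b2: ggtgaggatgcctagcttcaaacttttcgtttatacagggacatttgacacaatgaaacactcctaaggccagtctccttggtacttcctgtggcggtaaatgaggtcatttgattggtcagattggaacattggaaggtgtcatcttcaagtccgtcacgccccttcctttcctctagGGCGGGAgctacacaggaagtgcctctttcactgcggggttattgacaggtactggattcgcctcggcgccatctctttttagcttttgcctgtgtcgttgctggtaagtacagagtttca
Sycp1: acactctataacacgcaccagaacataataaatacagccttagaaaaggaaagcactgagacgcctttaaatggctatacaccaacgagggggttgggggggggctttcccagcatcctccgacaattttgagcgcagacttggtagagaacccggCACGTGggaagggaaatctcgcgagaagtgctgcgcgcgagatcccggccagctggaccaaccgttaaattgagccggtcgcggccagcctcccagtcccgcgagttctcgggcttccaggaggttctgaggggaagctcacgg
Hormad1: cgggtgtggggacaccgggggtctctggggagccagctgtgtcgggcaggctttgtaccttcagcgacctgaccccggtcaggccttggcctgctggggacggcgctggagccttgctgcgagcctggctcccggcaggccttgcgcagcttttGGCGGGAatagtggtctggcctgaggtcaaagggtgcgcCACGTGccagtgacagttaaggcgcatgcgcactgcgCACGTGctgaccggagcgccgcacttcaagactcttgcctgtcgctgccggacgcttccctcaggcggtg
Fkbp6: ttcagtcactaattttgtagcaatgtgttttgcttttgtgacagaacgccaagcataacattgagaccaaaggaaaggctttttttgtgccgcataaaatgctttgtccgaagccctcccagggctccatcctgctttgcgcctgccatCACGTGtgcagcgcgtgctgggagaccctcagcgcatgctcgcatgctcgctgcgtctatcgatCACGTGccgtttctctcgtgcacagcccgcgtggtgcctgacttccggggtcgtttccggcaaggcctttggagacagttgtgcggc
Dazl: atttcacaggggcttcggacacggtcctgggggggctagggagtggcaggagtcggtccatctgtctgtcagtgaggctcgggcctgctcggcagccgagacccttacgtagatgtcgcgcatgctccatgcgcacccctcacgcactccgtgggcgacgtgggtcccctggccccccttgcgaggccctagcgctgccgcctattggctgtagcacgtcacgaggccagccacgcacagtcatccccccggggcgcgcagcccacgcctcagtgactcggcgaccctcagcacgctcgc

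The windows lie at chr5:71548156-71548455 (minus strand) for Cox7b2, chr3:102936051-102936350 (minus) for Sycp1, chr3:95559427-95559726 (plus) for Hormad1, chr5:135349995-135350294 (minus) for Fkbp6 and chr17:50293571-50293870 (minus) for Dazl. All 9 called genes had a window, and it began at the start of the line measured. Of the 9, 5 held CACGTG and 2 held GGCGGGA, and 6 held at least 1 of them. Hormad1 held both motifs, with 2 copies of CACGTG, Fkbp6 held 2 copies of CACGTG, and in the Dazl window neither set of letters occurred. Both motifs were searched on both strands, where they can overlap by no more than 1 base. Over the 41 tested list members with a window, 39% held CACGTG and 26.8% held GGCGGGA, against 10.5% and 21.4% of 10026 tested autosomal genes with a window and 7.15% and 11.3% of all 32851 windows of the RefSeq table. Of 184 falling genes of any kind with a window, 10.3% held CACGTG. The members were chosen with their values known, so these shares are a description. The number of CG pairs per window was 10 in Cox7b2, 28 in Dazl and 17 to 30 in the other 7, with a median of 24 over the 9 and of 21 over tested genes.

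Cox7b2, a testis paralogue of a cytochrome c oxidase subunit, gave 1.01 and 1.26 CPM in abc.del, against 30.1 and 33.2 in F121-9. Its log2 difference was -4.69 (SE 0.27, adjusted p = 0.000259), and the means differed 27.9-fold. Sycp1, which forms the transverse filaments of the synaptonemal complex, gave 0.651 and 1.06 CPM in abc.del, against 19.08 and 14.5 in F121-9, and fell by 4.17 (SE 0.34, adjusted p = 0.00187). In both genes the F121-9 libraries lay more than 10 times above either abc.del library.

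Dazl, an RNA-binding protein needed for germ cell entry into meiosis, gave 1.11 and 1.02 CPM in abc.del, against 14.99 and 7.67 in F121-9, a difference of -3.22 (SE 0.38, adjusted p = 0.00596). Meiotic cohesin was lower through Smc1b and Stag3. Smc1b gave 3.12 and 1.53 CPM in abc.del, against 12.3 and 26.6 in F121-9 (difference -2.99, SE 0.43, adjusted p = 0.0116). Stag3 gave 8.80 and 8.51 CPM in abc.del, against 23.0 and 18.2 in F121-9 (difference -1.23, SE 0.22, adjusted p = 0.0219). Replicates of the parental line were further apart for Dazl and Smc1b than for Stag3. The groups did not overlap in any of them, as in 53.1% of all tested genes.

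Hormad1, a protein of the meiotic chromosome axis, gave 2.80 and 3.69 CPM in abc.del, against 11.3 and 14.9 in F121-9 (difference -1.98, adjusted p = 0.0116). Sohlh2, a transcription factor of early germ cells, gave 2.22 and 2.81 CPM in abc.del, against 15.3 and 16.2 in F121-9 (difference -2.61, adjusted p = 0.00398). With Sycp1, Smc1b and Stag3, Hormad1 completed the 4 of 23 tested genes of the meiotic axis and recombination list that fell, while 0 rose, against 1.98% and 0.781% of all genes. The list's median was -0.45. Mei4, Msh4 and Dmc1, which act in recombination, had differences of -0.20, 0.10 and -0.45 and did not pass.

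The piRNA pathway, which silences transposons in germ cells with small RNAs bound to Piwi proteins, had 5 of 25 tested genes that fell and 0 that rose, against 1.98% and 0.781% of all genes, with a median of -1.28. Dazl, Fkbp6 and Stk31 belong to this list and to the germ line list. Fkbp6, an immunophilin of the pathway, was the most transcribed of the falling members of the germ line list, which does not hold Rnf17. It gave 36.3 and 36.1 CPM in abc.del, against 89.4 and 106 in F121-9 (difference -1.42, SE 0.16, adjusted p = 0.0052). The Tudor-domain genes Stk31 and Rnf17 behaved alike: Stk31 gave 7.55 and 6.80 CPM in abc.del, against 20.8 and 23.5 in F121-9 (-1.61, adjusted p = 0.00884), and Rnf17 gave 39.5 and 48.9 CPM in abc.del, against 93.0 and 85.9 in F121-9 (-1.02, adjusted p = 0.0164). The fifth, Gtsf1, a cofactor of nuclear Piwi silencing, gave 0.396 and 0.576 CPM in abc.del, against 3.32 and 3.07 in F121-9 (-2.51, adjusted p = 0.0208).

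The pathway's central genes did not pass. Piwil2 gave 2.49 and 1.71 CPM in abc.del, against 5.37 and 6.43 in F121-9 (-1.46, adjusted p = 0.0545), and the helicase Ddx4 gave 2.81 and 3.42 CPM, against 5.06 and 5.43 CPM (-0.74, adjusted p = 0.204). Tdrd5 lay the other way, with 6.48 and 6.31 CPM in abc.del, against 2.34 and 2.83 in F121-9 (1.28, adjusted p = 0.0581), and Tdrd12, with 39.99 and 37.1 CPM, against 32.6 and 51.6 CPM, overlapped. When each library was left out in turn, the falls of Cox7b2, Sycp1, Dazl, Smc1b, Sohlh2, Hormad1, Fkbp6 and Stk31 kept passing in limma. That of Stag3 was lost without either abc.del library or F121-9 replicate 1, and that of Rnf17 without abc.del replicate 1. The germ line list then had 8 to 10 falling members. Fitted with ab.del and c.del, only Cox7b2 and Sycp1 of the list passed.

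**Figure D1:**
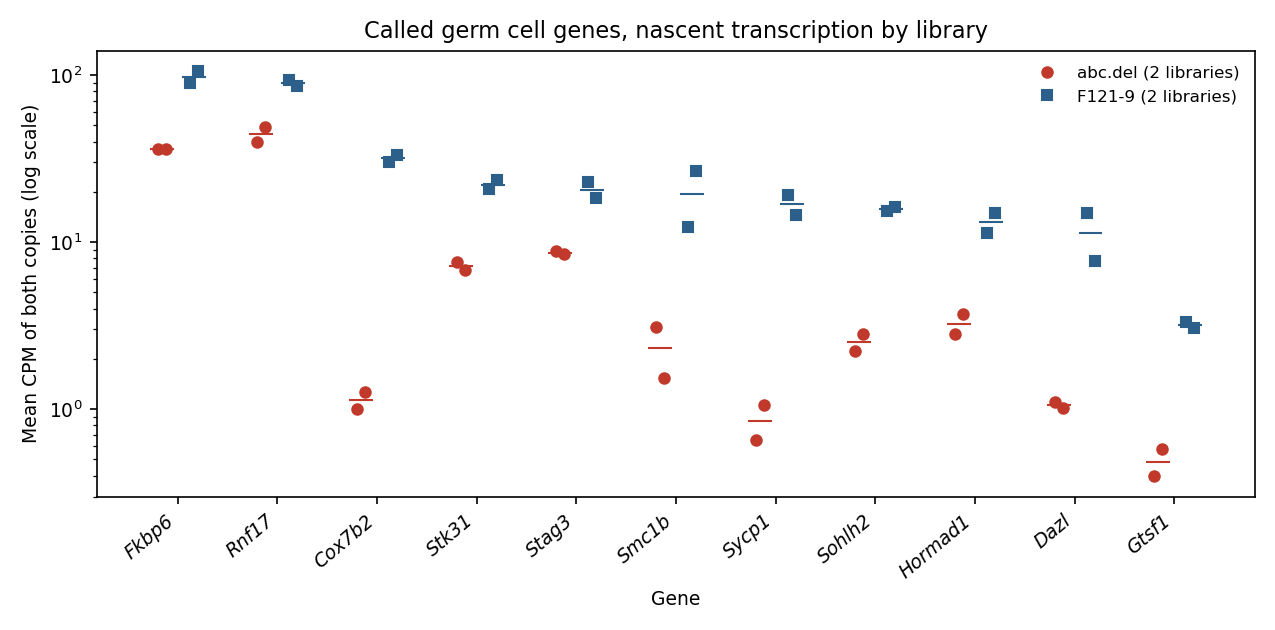
Mean CPM of both copies (y axis, log scale) of the 11 genes of the germ line, meiotic and piRNA lists that passed in limma (x axis), 1 point per library with red circles for abc.del on the left, blue squares for F121-9 on the right and a line at each mean. The genes were chosen as calls, and the gap is widest in Cox7b2, with 1.01 and 1.26 CPM in abc.del against 30.1 and 33.2 in F121-9.

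The 2-cell-like state, a rare state of stem cell cultures marked by Zscan4 genes, had 2 genes above the filter of 0.2 CPM and neither passed. Zscan4d had 0 reads in both abc.del libraries, against 0.419 and 1.11 in F121-9, which with a floor of 3 reads per library makes it at least 9.29-fold lower (adjusted p = 0.0673); near-identical copies of this gene make its count uncertain. Usp17le gave 0 and 0.0287 CPM in abc.del, against 0.624 and 0.256 in F121-9.

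Genes of signalling pathways that act on the naive state rose in small numbers. In the FGF and ERK list, 2 of 16 tested genes rose and 0 fell, against 0.781% and 1.98% of all genes. The list's median was 0.57, beside 0.06 for all genes and 0.23 for all genes of 5 to 20 kb. Its median span was 13.6 kb. Spry4, an inhibitor of the pathway that is itself induced by ERK, gave 10.9 and 17.6 CPM in abc.del, against 4.98 and 1.44 in F121-9 (difference 2.32, SE 0.50, adjusted p = 0.0464). Il17rd, another feedback inhibitor, gave 124 and 137 CPM in abc.del, against 83.9 and 74.8 in F121-9 (0.72, SE 0.15, adjusted p = 0.0378). Other members that respond to ERK lay higher in both abc.del libraries without passing, such as Spry2 with 13.8 and 12.1 CPM, against 7.28 and 4.09 in F121-9 (1.22, adjusted p = 0.0668), or overlapped, such as Etv4 and Spred1. Il17rd was no longer called when any 1 of the 4 libraries was left out, and Spry4 without either abc.del library or F121-9 replicate 2.

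In the LIF and STAT3 list 2 of 13 genes rose and 1 fell, against 0.781% and 1.98% of all genes, with a median of 0.48. Its median span was 6.1 kb, and all genes of 5 to 20 kb had a median of 0.23. Stat3, the transcription factor at the end of the LIF pathway, gave 96.7 and 91.3 CPM in abc.del, against 60.1 and 36.9 in F121-9 (1.00, SE 0.22, adjusted p = 0.0482). Socs2, an inhibitor of cytokine signalling, gave 26.1 and 21.6 CPM in abc.del, against 11.4 and 11.5 in F121-9 (1.04, SE 0.20, adjusted p = 0.0316). Jak1, the kinase upstream of Stat3, was lower: 30.7 and 27.9 CPM in abc.del, against 49.4 and 66.0 in F121-9 (-0.96, SE 0.19, adjusted p = 0.0323). The kinase and the factor it activates thus lay on opposite sides, while the receptors Lifr (0.40) and Il6st (0.23) did not pass. Stat3 and Jak1 lost the call without either abc.del library or F121-9 replicate 2, Socs2 without any 1 library, and Stat3 did not pass in edgeR.

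Lef1, a factor that carries Wnt signals to DNA, was the 1 gene of 11 in the Wnt list to rise, and 0 fell, against 0.781% and 1.98% of all genes (median 0.67). It gave 46.6 and 48.8 CPM in abc.del, against 10.5 and 20.4 in F121-9 (1.70, SE 0.28, adjusted p = 0.0171), and the call was lost without either abc.del library. The feedback gene Axin2 gave 23.6 and 27.6 CPM in abc.del, against 14.8 and 14.6 in F121-9 (0.79, adjusted p = 0.0627). Lef1 was also the only riser among 12 genes of the formative and primed list, whose median was 0.42; Fgf5 and Otx2, which mark the step out of the naive state, overlapped between groups. In the TGF-beta, Nodal and BMP list 0 of 15 genes passed. Its smallest p belonged to Lefty1, a Nodal inhibitor, with 15.2 and 4.73 CPM in abc.del, against 1.48 and 2.06 in F121-9 (2.22, SE 0.50, adjusted p = 0.0527), which did pass in edgeR and DESeq2 and without abc.del replicate 2.

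Most core pluripotency genes were higher in abc.del by small amounts. Of 15 tested, 13 had a positive difference and in 13 the groups did not overlap (53.1% of all genes), but only Lin28a, which blocks let-7 processing, passed, with 13.02 and 22.9 CPM in abc.del, against 5.96 and 3.04 in F121-9 (1.99, SE 0.37, adjusted p = 0.0274); the call was lost without abc.del replicate 2 or F121-9 replicate 2. With 0.781% of all genes called as higher, 1 of 15 was called here. The list's median was 0.47, beside 0.06 for all genes, with Pou5f1 at 0.37, Sox2 at 0.32 and Nanog at -0.08. These are short genes, with a median span of 7.1 kb, and all genes of 5 to 20 kb had a median difference of 0.23. Of 17 naive factors 0 passed and the median was 0.16. The smallest p in that list were those of Tet2, which gave 315 and 377 CPM in abc.del, against 563 and 433 in F121-9 (-0.52, adjusted p = 0.12), and Esrrb, which gave 1040 and 902 CPM in abc.del, against 777 and 718 in F121-9 (0.38, adjusted p = 0.154).

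**Figure D2:**
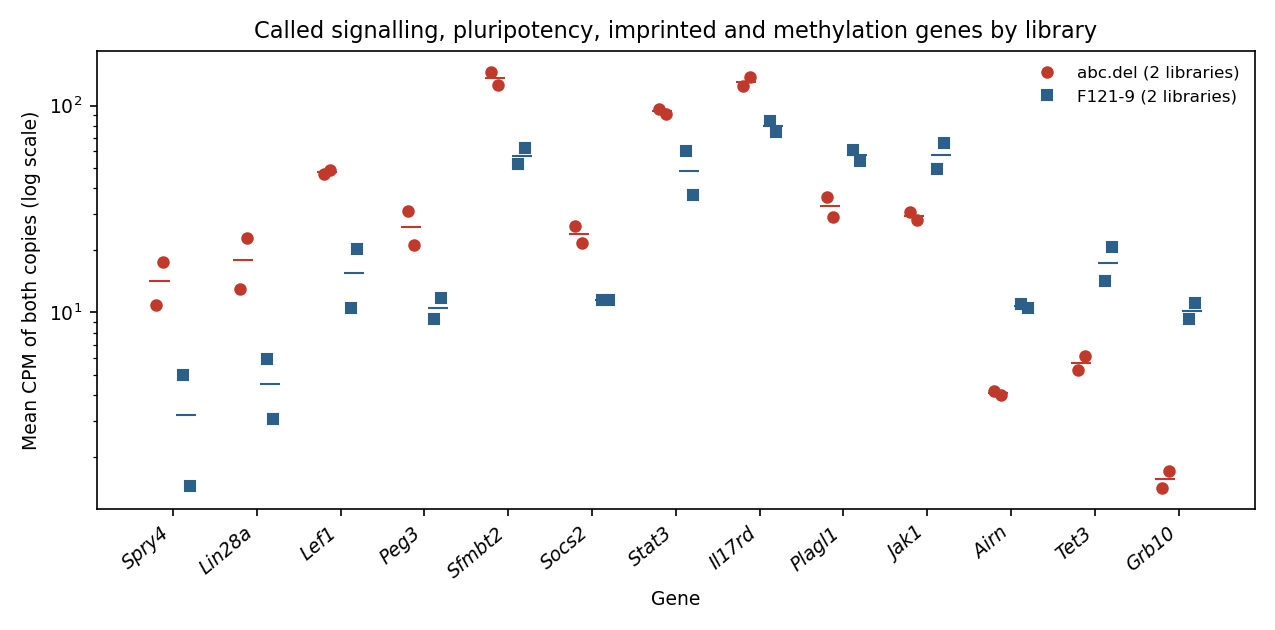
Mean CPM of both copies (y axis, log scale) of the genes that passed in limma in the FGF and ERK, Wnt, LIF and STAT3, core pluripotency, formative, imprinted and DNA methylation lists (x axis), sorted by their difference, with red circles for the 2 abc.del libraries on the left and blue squares for the 2 F121-9 libraries on the right and a line at each mean. Spry4 lies at the rising end and Grb10 at the falling end; the genes were chosen as calls, and groups that do not overlap occur in 53.1% of all genes.

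Among the writers, readers and erasers of DNA methylation 1 of 18 genes fell and 0 rose, against 1.98% and 0.781% of all genes, with a median of -0.06. It was Tet3, an enzyme that oxidises methylated cytosine, with 5.27 and 6.16 CPM in abc.del, against 14.1 and 20.7 in F121-9 (-1.57, SE 0.26, adjusted p = 0.0176). The call was lost without abc.del replicate 1 or F121-9 replicate 2. The maintenance pair Dnmt1 and Uhrf1 had differences of 0.49 and 0.50 (adjusted p = 0.109 and 0.13), and the de novo enzymes Dnmt3a and Dnmt3b overlapped between groups. Tet1, the most transcribed TET gene of these cells, gave 767 and 1201 CPM in abc.del, against 851 and 671 in F121-9 and overlapped.

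Imprinted genes, a class named for transcription mainly from the maternal or the paternal copy, moved both ways. Of 36 tested, 3 fell and 2 rose, against 1.98% and 0.781% of all genes, with a median of 0.21. Grb10, a growth-restraining adaptor, gave 1.42 and 1.71 CPM in abc.del, against 9.31 and 11.1 in F121-9 (-2.63, SE 0.31, adjusted p = 0.00555). Airn, the noncoding RNA known for silencing Igf2r in cis, gave 4.16 and 4.01 CPM in abc.del, against 10.96 and 10.5 in F121-9 (-1.37, SE 0.25, adjusted p = 0.0256). Plagl1, a zinc finger factor and the fifth called gene of the list, gave 36.1 and 29.0 CPM in abc.del, against 61.2 and 54.1 in F121-9 (-0.83, adjusted p = 0.0436). In all 3 abc.del was lower and the groups did not overlap, which in either direction holds for 53.1% of all tested genes.

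The rising pair was Sfmbt2 and Peg3. Sfmbt2, a Polycomb-related gene, gave 146 and 126 CPM in abc.del, against 52.4 and 62.1 in F121-9 (1.25, SE 0.16, adjusted p = 0.00773). Peg3 gave 30.8 and 21.3 CPM in abc.del, against 9.27 and 11.8 in F121-9 (1.28, SE 0.24, adjusted p = 0.0289). Grb10 and Sfmbt2 kept passing when each library was left out. Peg3 did not without abc.del replicate 1 or F121-9 replicate 1, and Airn did not without any 1 library.

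The share of reads from 129 differed between groups at some imprinted genes, and it is given as a description. Several of these genes were read from both copies in F121-9, with mean shares of 44.8% at Airn, 50.8% at Grb10 and 53.1% at Igf2r. Others were uneven there, such as Meg3 with 19.4% and Plagl1 with 81.6%. At Sfmbt2 it was 78.3% and 82.9% in abc.del, against 66.6% and 71.6% in F121-9, with Wilson 95% intervals of 77.2% to 79.3% for abc.del replicate 1 and 69.6% to 73.6% for F121-9 replicate 2, the 2 nearest libraries. At Meg3, the maternally expressed noncoding RNA, it was 24.5% and 28.2% in abc.del, against 20.1% and 18.7% in F121-9. Meg3's level did not pass (0.89, adjusted p = 0.064), but did when either replicate 1 was left out. In edgeR's test of the difference between copies Sfmbt2 passed (adjusted p = 1.82e-05) and so did Meg3 (0.00506), while limma's did not pass for either (unadjusted p = 0.0324 and 0.0619).

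Peg10, a retrotransposon-derived gene, had the widest difference in share: 48.6% and 46.7% in abc.del, against 27.6% and 29.1% in F121-9, over 60 to 123 reads a library, with an interval of 34.6% to 59.1% for the lower abc.del library and 20.3% to 39.9% for the higher F121-9 library. The difference in change between its copies did not pass in edgeR (adjusted p = 0.741). In limma it was 1.21 for 129 minus cast and did not pass either (unadjusted p = 0.00329, adjusted p = 0.499). Gnas went the other way, with 45.2% and 30.7% in abc.del, against 50% and 60.6% in F121-9, and Airn gave 39.9% and 18.0%, against 44.9% and 44.7%. For abc.del replicate 1 the interval was 37.4% to 53.3% at Gnas and 32.7% to 47.5% at Airn. It held the share of F121-9 replicate 1 at Gnas and those of both F121-9 libraries at Airn. The shares of the groups did not overlap for Usp29 either (32.0% and 43.8%, against 16.1% and 28.6%), over as few as 42 reads, whereas Zrsr1 and Peg13 overlapped.

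The largest rise by the naming rule was that of Crmp1, a phosphoprotein of semaphorin signalling in neurons, with 11.4 and 23.6 CPM in abc.del, against 3.08 and 2.59 in F121-9 (2.49, SE 0.35, adjusted p = 0.0115). Ina, a neuronal intermediate filament, gave 5.66 and 7.16 CPM in abc.del, against 1.19 and 0.944 in F121-9 (2.48), and the potassium channel gene Kcnh8 gave 21.01 and 14.6 CPM in abc.del, against 3.52 and 2.80 in F121-9 (2.44, adjusted p = 0.00555). The next were Spry4 and Nipal1 (2.26), Trh, the thyrotropin-releasing hormone (2.16), Prlr, the prolactin receptor (1.99), Lin28a, the kinesin Kifc3 (1.97) and Lrrc15 (1.95). The 10 have no list in common but were all below 7 CPM in both F121-9 libraries. Of these 10, Kcnh8 alone kept passing when each library was left out; Crmp1 and Ina were lost without abc.del replicate 2, Prlr without abc.del replicate 1 or F121-9 replicate 2, Kifc3 and Lrrc15 without either abc.del library, and Nipal1 and Trh without either abc.del library or F121-9 replicate 1.

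Higher in level, and named after their values were seen, Runx1t1 and Csrnp3 differed on both copies. Runx1t1 gave 92.2 and 79.0 CPM in abc.del, against 28.9 and 28.2 in F121-9 (1.54 on 129 and 1.63 on cast), and was 1 of the 5 called genes with a name here that also passed when 4 groups were fitted together. Csrnp3 gave 244 and 230 CPM in abc.del, against 104 and 102 in F121-9. Ror1, a receptor for Wnt5a, gave 52.7 and 66.6 CPM in abc.del, against 18.0 and 15.8 in F121-9 (1.81, adjusted p = 0.00398).

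The largest falls besides Cox7b2 and Sycp1 were mostly in genes with few reads in abc.del. Spink13, a protease inhibitor gene, gave 0.0986 and 0.147 CPM in abc.del, against 3.76 and 10.2 in F121-9 (-4.83, SE 0.56, adjusted p = 0.00555). Gm12724 had 1 read in abc.del and 215 reads in F121-9, a ratio of 198 in F121-9 over abc.del, with a 95% interval from counting of 35.2 to 7865. Nlrp4c, of an oocyte-expressed NLR family with close paralogues, gave 0.10002 and 0.328 CPM in abc.del, against 5.77 and 5.03 in F121-9 (-4.23). Gm10754 (-4.65), G730013B05Rik (-4.26), Gm36229 (-4.04), Ccdc152 (-3.99) and Rcsd1 (-3.95), which encodes a protein that binds actin capping protein, completed the 10. Ccdc152 lost its call without either F121-9 library, and the others named here kept theirs when each library was left out.

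A second set of falls was in genes with long spans. Of 196 tested genes spanning at least 500 kb, 20 fell and 3 rose, against 1.98% and 0.781% of all genes, and 151 had a negative difference. Tmem132d, a transmembrane protein gene of 650 kb on chromosome 5, gave 7.33 and 11.9 CPM in abc.del, against 144 and 124 in F121-9 (-3.82, SE 0.23, adjusted p = 0.000259). The receptor phosphatase gene Ptprm, of 688 kb, gave 6.54 and 4.16 CPM in abc.del, against 38.4 and 36.2 in F121-9 (-2.81, SE 0.25, adjusted p = 0.00214). Hs6st3, a heparan sulfate sulfotransferase gene, gave 10.5 and 13.2 CPM in abc.del, against 47.0 and 41.2 in F121-9 (-1.90), and Ccser1 gave 7.41 and 6.07 CPM in abc.del, against 24.8 and 24.4 in F121-9 (-1.86). All 4 fell on both copies and kept passing when each library was left out, but the count of falling genes was 4 without abc.del replicate 1, 5 without F121-9 replicate 2, 11 without F121-9 replicate 1 and 15 without abc.del replicate 2.

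The difference followed the span of the gene over all autosomal genes. The median was 0.44 for 1345 genes under 5 kb, 0.23 for 4088 genes of 5 to 20 kb, 0.04 for 20 to 50 kb, -0.11 for 50 to 100 kb, -0.15 for 100 to 200 kb, -0.31 for 200 to 500 kb and -0.62 from 500 kb up. Both copies showed the same order of classes. Within groups the medians of replicate 1 minus replicate 2 lay between -0.14 and 0.09 in every class. The classes also differed in level, with a median of 1.11 CPM under 5 kb, 31.0 CPM at 100 to 200 kb and 5.34 CPM from 500 kb up. Among genes of at least 5 CPM the medians were 0.51 under 5 kb, -0.14 at 200 to 500 kb and -0.15 from 500 kb up, so the slope at the long end was smaller there. Genes called as lower made up 0.297% of those under 5 kb and 10.2% of those from 500 kb up.

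**Figure D3:**
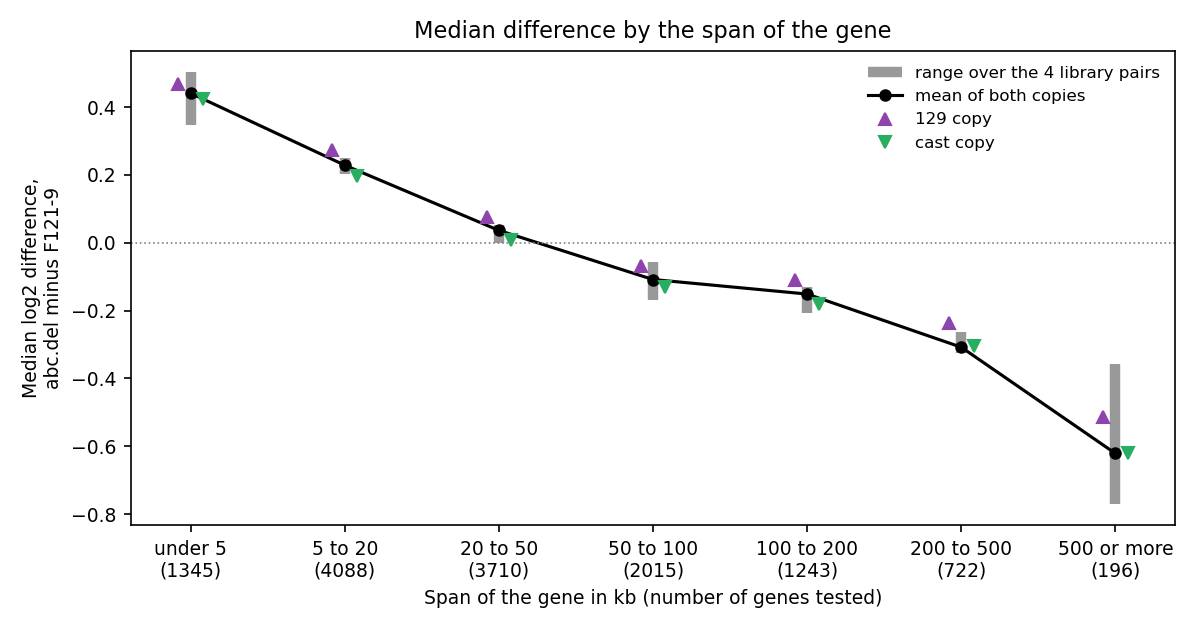
Median difference (y axis, log2, abc.del minus F121-9) of autosomal genes away from the locus by the span of the gene (x axis, kb, with the number of genes), for the mean of both copies (black circles and line), the 129 copy (upward triangles) and the cast copy (downward triangles); grey bars give the range over the 4 pairs of 1 abc.del and 1 F121-9 library. The medians run from 0.44 under 5 kb to -0.62 from 500 kb up, and the copies follow each other.

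Short housekeeping genes stood at the other end. Of 77 ribosomal protein genes 75 had a positive difference and the median was 0.60, with 3 called as higher and 0 as lower, against 0.781% and 1.98% of all genes. Rpl13a gave 58.1 and 54.0 CPM in abc.del, against 31.6 and 30.5 in F121-9 (0.85, adjusted p = 0.0274), Rpl3 gave 56.2 and 49.1 CPM, against 32.9 and 26.5 CPM (0.83, adjusted p = 0.0458), and Rps12 gave 54.3 and 59.1 CPM, against 33.2 and 35.7 CPM (0.72, adjusted p = 0.0485). The calls were few and fragile, since Rps12 did not pass in edgeR, none of the 3 passed without either abc.del library, and processed copies of these genes can share reads. The noncoding hosts of small nucleolar RNAs and the Platr genes had a median of 0.56, with Snhg17 called as higher of 24 tested, against 0.781% of all genes (51.8 and 55.2 CPM in abc.del, against 30.4 and 33.0 in F121-9), a call lost without any 1 library.

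Genes of synapses and neuronal adhesion, with a median span of 1068 kb, had 36 of 44 negative differences and a median of -0.89. Of them 2 fell and 1 rose, against 1.98% and 0.781% of all genes and, for falls, 10.2% of genes from 500 kb up. Csmd1 gave 0.535 and 1.36 CPM in abc.del, against 4.70 and 4.37 in F121-9 (-2.27, adjusted p = 0.0377), and Dpp6, a potassium channel partner, gave 31.1 and 31.7 CPM in abc.del, against 57.0 and 69.5 in F121-9 (-1.003, adjusted p = 0.0176). Magi2, a synaptic scaffold of 1478 kb, rose, with 61.7 and 53.9 CPM in abc.del, against 28.8 and 27.8 in F121-9 (1.03, adjusted p = 0.016). Magi2 lost its call without abc.del replicate 1, Csmd1 without abc.del replicate 1 or either F121-9 library, and Dpp6 without either abc.del library or F121-9 replicate 2. The zinc finger genes Zfp700 to Zfp999 had 1 riser and 1 faller of 105, near the 0.781% and 1.98% of all genes. They were Zfp827 with 172 and 192 CPM in abc.del, against 83.9 and 89.6 in F121-9 (1.07), and Zfp800 with 9.70 and 9.40 CPM in abc.del, against 26.2 and 24.1 in F121-9 (-1.39).

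Markers of other lineages moved both ways. Of 7 trophoblast genes 2 rose and 1 fell, against 0.781% and 1.98% of all genes: Tfap2c gave 29.4 and 20.7 CPM in abc.del, against 6.91 and 8.40 in F121-9 (1.68), Fgfr2 gave 27.7 and 33.1 CPM, against 11.95 and 5.73 CPM (1.86), and Ets2 gave 2.69 and 2.78 CPM, against 7.79 and 7.91 CPM (-1.49). Of the trophoblast markers checked, Cdx2, Elf5 and Hand1 were at or near 0 in all 4 libraries. Eomes, the highest of them, gave 0.577 and 0.208 CPM in abc.del, against 0.557 and 0.416 in F121-9. In the primitive endoderm list of 15 genes Lama1 rose (0.71) while Col4a1 (-1.17) and Col4a2 (-1.84) fell. Of the 7 genes checked as markers of that lineage only Foxa2 had 0 reads. Gata4 gave 0.910 and 0.606 CPM in abc.del, against 1.31 and 1.51 in F121-9, and Pdgfra was lower too. Sox7 lay the other way, with 0.123 and 0.492 CPM in abc.del, against 0 in F121-9, while Gata6, Sox17 and Dab2 overlapped. In the fibroblast list of 8 genes Vim gave 16.1 and 20.2 CPM in abc.del, against 4.93 and 5.48 in F121-9 (1.78, adjusted p = 0.0091), and Col5a1 fell by 1.66.

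Leaving out 1 library ended each of these calls. Ets2 and Col4a1 were lost without any 1 library, Lama1 and Col5a1 without either abc.del library or F121-9 replicate 2, and Fgfr2 without either abc.del library. Tfap2c was lost without abc.del replicate 1, Col4a2 without abc.del replicate 1 or F121-9 replicate 2, and Vim without abc.del replicate 2. The defining fibroblast markers, Col1a1, Col1a2 and 5 others, summed to at most 0.0862 CPM in abc.del and to 0.572 and 0.766 CPM in F121-9; Lum was at 0 throughout. Neural markers summed to 1.25 and 3.91 CPM in abc.del, against 1.67 and 0.564 in F121-9, almost all of it Pax6, with Olig2 and Neurog1 at 0. Trophoblast markers summed to 0.774 and 0.239 CPM against 0.946 and 0.798 CPM, mesoderm markers to 0.0768 and 0.183 CPM against 0.432 and 0.587 CPM, and primitive endoderm markers to 8.54 and 10.6 CPM against 13.02 and 9.34 CPM, most of it Dab2. Their part in the results was not tested, and fewer cells of a type and less RNA per cell cannot be told apart in such bulk libraries.

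Several pathways gave 0 calls in either direction: Polycomb complexes (34 genes, median 0.09), CTCF and cohesin (15, 0.04), DNA replication (42, 0.27), p53 and its targets (22, 0.45), ATF4 stress genes (28, -0.07), cholesterol synthesis (23, 0.20), hypoxia and glycolysis (30, 0.11), cell cycle (30, 0.06), immediate early genes (10, 0.40), replication-dependent histones (21, 0.20), clustered protocadherins (36, 0.25), neural progenitor markers (6, 0.47), mesoderm markers (3, -0.75), Hox genes (5, -0.11) and olfactory receptors (2, -0.04). With 2 libraries a group a missed threshold does not show that these genes were equal. The smallest p of the replication list was that of Pola2, a DNA polymerase alpha subunit, with 35.0 and 36.7 CPM in abc.del, against 19.5 and 22.6 in F121-9 (0.77, adjusted p = 0.055). In the p53 list it was that of Aen, a nuclease induced by p53, with 13.6 and 20.2 CPM in abc.del, against 9.02 and 7.44 in F121-9 (1.01, adjusted p = 0.07), and in the Polycomb list that of Jarid2, a PRC2 partner, with 967 and 1250 CPM in abc.del, against 1854 and 1540 in F121-9 (-0.62, adjusted p = 0.0728).

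On each copy alone, 295 of 13235 genes passed on 129 (2.23%), 106 higher (0.801%) and 189 lower (1.43%), and 229 of 13104 on cast (1.75%), 50 higher (0.382%) and 179 lower (1.37%). Of these, 118 passed on both copies, 40% of the 129 calls and 51.5% of the cast calls, and all 118 had the same direction. Of 359 genes called on the mean of both copies with a value on each, 356 had the same sign on 129 and cast and 295 had copies within 1 log2 unit of each other. The copies are parts of the mean that was tested, which favours such agreement. Each copy was scaled to its own total, which includes the X, where abc.del had few 129 reads. Over all genes the median difference was 0.10 on 129 and 0.03 on cast, so the numbers of rises on the copies are not on 1 footing. Leaving out either F121-9 library left 0 calls on each copy.

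**Figure D4:**
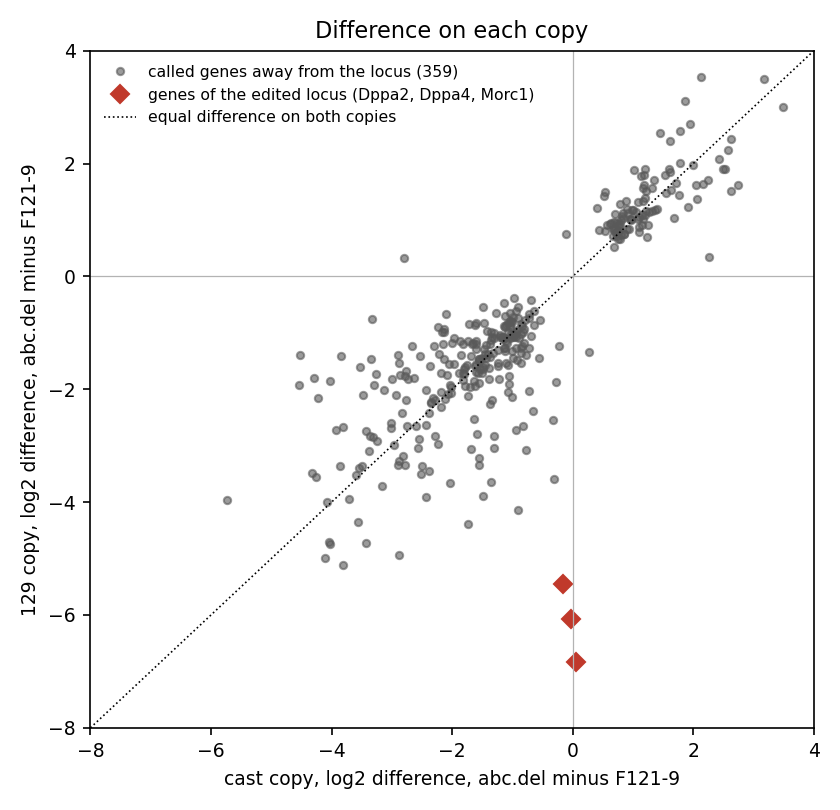
Difference on the 129 copy (y axis) against that on the cast copy (x axis), both log2 of abc.del minus F121-9, for the 359 genes away from the locus called on the mean of both copies (grey) and for Dppa2, Dppa4 and Morc1 (red diamonds); the dotted line marks equal differences. The grey points spread along the line with 356 of 359 on 1 side of 0 for both copies, while the locus genes lie near 0 on cast and between -5.45 and -6.82 on 129.

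Cox7b2 fell on both copies, with 1.18 and 1.55 CPM from 129 in abc.del, against 44.9 and 47.2 in F121-9, and 0.835 and 0.975 CPM from cast, against 15.3 and 19.09 CPM. Sycp1 was read mainly from cast, at 1.25 and 1.77 CPM in abc.del, against 35.3 and 26.1 in F121-9, and its weaker 129 copy gave 0.0493 and 0.345 CPM, against 2.88 and 2.94 CPM. Tmem132d fell by 3.49 on 129 and by 4.33 on cast. In these 3 genes the cast copy, on which Dppa2, Dppa4 and Morc1 differed little, was lower as well.

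A direct test of whether the change differed between copies called 0 of 13319 genes in limma (0%), with 992 at an unadjusted p under 0.05, and 147 (1.1%) in edgeR, of which 85 were positive for 129 minus cast (0.638%) and 62 negative (0.466%). The limma test also missed the locus genes Morc1, Dppa2 and Dppa4, with differences of -6.04, -5.29 and -6.87 (adjusted p = 0.499 for each). In edgeR these passed (adjusted p = 4.03e-35, 2.74e-14 and 2.21e-15). The 0 in limma therefore does not show that the copies changed alike. Away from the locus, the genes with the smallest limma p were low in level, among them Chpf, Cd40, Me3, 9130227L01Rik and Veph1, and none passed in edgeR either. The genes that follow passed in edgeR and were chosen after their values were seen. Cacna2d1, a calcium channel subunit, gave 53.8 and 54.2 CPM from 129 in abc.del, against 128 and 145 in F121-9, while its cast copy gave 29.2 and 31.5 CPM, against 26.3 and 23.7 CPM (edgeR adjusted p = 7.56e-11). The 129 libraries of the groups lie far apart, and the cast libraries close together.

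Pclo, a scaffold of the presynaptic zone, was higher on the cast copy, with 93.1 and 47.9 CPM in abc.del, against 14.3 and 13.3 in F121-9, while 129 gave 11.04 and 9.59 CPM, against 7.98 and 8.09 CPM (edgeR adjusted p = 2.38e-07). Platr20, a noncoding RNA of stem cells, was lower on cast alone, with 4.43 and 3.17 CPM in abc.del, against 18.0 and 30.2 in F121-9, and 42.2 and 40.7 CPM from 129, against 40.7 and 48.2 CPM (edgeR adjusted p = 4.35e-10). Prex2 and Prdm14, a factor of naive cells, were lower on 129, by 1.23 and 1.40 on the log2 scale, with cast differences of -0.22 and -0.23.

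Other genes moved on both copies by unequal amounts. Csrnp3 differed by 1.89 on 129 and 1.02 on cast (edgeR adjusted p = 4.72e-06), Klf12 by 1.22 and 0.40 (edgeR adjusted p = 5.29e-08), and Lef1 by 2.54 and 1.45 (edgeR adjusted p = 0.00878). Rnf17 was less transcribed from cast than from 129 in all 4 libraries and differed by -1.71 on cast and -0.85 on 129 (edgeR adjusted p = 0.000411). Psma8, a proteasome subunit of germ cells, had 0 cast reads in abc.del, against 3.36 and 1.78 in F121-9, while its 129 copy gave 13.7 and 17.2 CPM, against 21.8 and 29.4 CPM (edgeR adjusted p = 7.45e-06).

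The other 12 libraries of the series, of 10 further groups, give levels of the same genes in cells with other edits of the locus. In 3 of them, 680kinv, 100kdel and 245kdel, 51.3% to 55.6% of X-linked reads came from 129, as in F121-9. In the other 9 it was 1.05% to 1.12% (4 libraries), 11.3% to 13.2% (2) or 99.8% (3). The names of the 9 all carry site letters and those of the 3 do not. The X and the kind of edit therefore cannot be told apart in what follows. Cox7b2 gave 43.3 to 90.0 CPM in those 3 libraries and 1.22 to 6.31 CPM in the 9. Sycp1 gave 18.9 to 42.7 CPM in the 3 and 0.879 to 5.24 CPM in the 9, and Smc1b 27.2 to 45.2 CPM and 0.638 to 5.75 CPM. For these 3 genes the abc.del libraries lay within or below the range of the 9 and the F121-9 libraries at the low end of that of the 3 or below it.

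Dazl overlapped, with 9.53 to 47.2 CPM in the 3 libraries and 0.516 to 10.6 CPM in the 9, and F121-9 replicate 2, with 7.67 CPM, lay within the range of the 9. Ptprm gave 38.4 to 61.4 CPM and 3.01 to 29.0 CPM, while Tmem132d gave 81.0 to 92.9 CPM in the 3 but reached 83.4 CPM in the 9. Among rising genes, Runx1t1 gave 14.8 to 49.6 CPM in the 3 and 50.8 to 168 CPM in the 9, and Csrnp3 gave 75.1 to 169 CPM and 182 to 402 CPM. Spry4, at 1.71 to 4.54 CPM and 4.27 to 50.4 CPM, and Lin28a, at 3.62 to 5.73 CPM and 4.39 to 21.8 CPM, overlapped at the edge. Crmp1, at 3.73 to 8.40 CPM and 6.18 to 34.0 CPM, overlapped too, and the 3 libraries lay wholly within the range of the 9 for Kcnh8, at 2.01 to 4.94 CPM and 1.95 to 16.1 CPM. The split was made on X-linked reads, which the autosomal fits do not hold, and its relation to the levels was not tested.

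**Figure D5:**
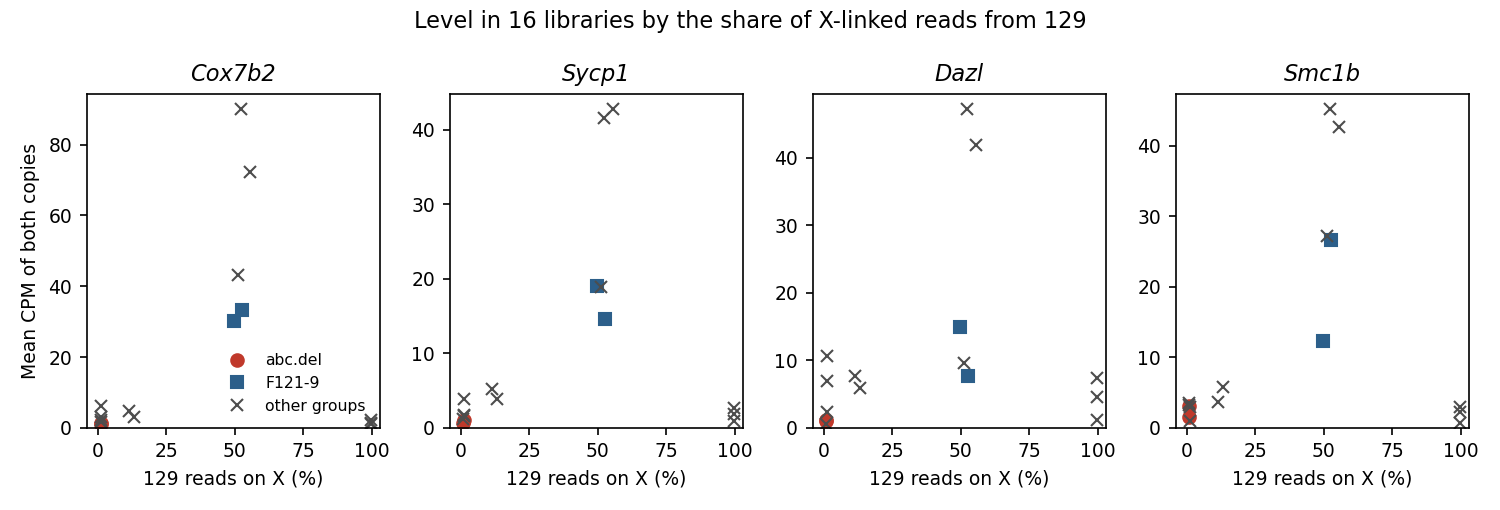
Mean CPM of both copies (y axis, each gene on its own scale) of Cox7b2, Sycp1, Dazl and Smc1b in 16 libraries by the percent of X-linked reads from 129 (x axis), with red circles for abc.del, blue squares for F121-9 and crosses for the other groups. Cox7b2, Sycp1 and Smc1b are higher in the 5 libraries with shares of 49.7% to 55.6% than in all others. These 5 are F121-9 and the libraries whose names carry no site letters, so share and kind of edit cannot be told apart. For Dazl F121-9 replicate 2, with 7.67 CPM, lies within the range of the others.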

How the data were processed

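The authors deposited 1 table with CPM values for the 129 and the cast copy of each gene line in 16 libraries. Per the table's header lines, reads were clipped, kept from a mapping quality of 10 and assigned to a copy by homozygous SNPs. Bowtie2, bedtools and mm10 are named in the submitters' processing notes. The table is named for RPKM, but each deposited CPM column sums to the same total over all lines in every library and holds no division by length. Whole reads were recovered from the CPM steps for 100% of values (tolerance 0.01 reads), and edgeR on them called 505 genes.

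The widest line per symbol on chromosomes 1 to 19 was kept, without 6 segments drawn by the authors. Genes within 1 Mb of the locus were tested but not counted. The 129 and cast CPM were averaged, genes with a mean of at least 0.2 CPM over the 4 libraries kept, and log2(CPM + 0.1) tested in limma with trended moderation, two-sided, with Benjamini-Hochberg adjustment over 13326 genes; every adjusted p without another tool named is from this fit. The same was done on each copy, with the filter on that copy's values, and on 129 minus cast. Versions were R 4.3.3, limma 3.58.1, edgeR 4.0.16 and DESeq2 1.42.0, and the tests were tried on simulated data. All reads were 100 bp single-end. Wilson intervals (95%) and the floor of 3 reads cover counting error only.

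The comparison and the gene lists were chosen with earlier results of these data known. Genes named are the 10 largest rises and falls among calls with groups that do not overlap and at least 1 CPM, up to 4 called members of each list or else the 2 with the smallest p, the smallest p for 129 minus cast, and up to 8 imprinted genes by their share. Further genes were picked with their values in view. Alternatives tried were other pseudocounts, filters, scalings and fits, edgeR, DESeq2, and leaving out each library.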

Additional observations from a re-analysis of the deposited data

How the results depend on the processing

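The 368 calls on the mean of both copies became 243 with no filter, 902 with median centring (226 higher, 676 lower), 1014 in DESeq2, 6 with 4 groups fitted together and 0 without the trend; leaving out a library gave 128 to 302, and without F121-9 replicate 2 the split was 92 higher and 101 lower. The 295 calls on 129 became 149 with a pseudocount of 0.01, 520 with median centring, 10 with 4 groups and 0 to 98 with a library left out. The 229 calls on cast became 105 with a pseudocount of 0.01, 141 with no filter, 384 with median centring, 3 with 4 groups and 0 to 28 with a library left out. For 129 minus cast edgeR gave 147 and leaving out a library 0. The cause was not tested. Of 70 called genes named by the rule, edgeR kept 67, DESeq2 69 and leaving out a library 34 to 51, and none of the 70 changed direction. Among the genes named, the difference on the mean changed sign only in genes that were not called: Dock8 (-0.00447 with a pseudocount of 1, -0.00936 with centring, -0.24 in edgeR and DESeq2, -0.93 to 1.05 with a library left out), Sez6 (0.15 with a pseudocount of 0.01, 0.18 with quantiles, -1.33 to 1.02 with a library left out), Chpf (0.15 with quantiles, -0.43 to 0.25), 4930433N12Rik (0.087 with quantiles, -0.84 to 0.29), 4930467D21Rik (-0.52 to 0.26), Olfr984 (0.10 with quantiles, -0.64 to 0.25), Olfr18 (-0.29 without abc.del replicate 2), Hoxb9 (-2.004 to 0.53), Rbm15b (-0.66 to 0.035) and Zrsr1 (-0.47 to 1.30). No autosome had a 129 share far enough from even to be left out, so that alternative gave no value. No paired analysis was possible because the abc.del names carry no replicate numbers. With 2 libraries a group and 14.2 to 22.3 M reads each, small differences and genes near the floor of 3 reads were not resolved.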
